A study of Mus musculus with 8 samples.

Results

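Expression of all genes was compared between pancreatic islets of untreated hIAPP transgenic mice and of untreated wild-type mice, on 2 arrays against 2 of the 8 arrays of the series. The 4 arrays were chosen by the genotype and treatment in their labels. All mice were 20 weeks old, and the labels name the strain FVB/N-Tg(Ins2-IAPP)RFHSoel/J for wild-type and transgenic samples alike. The strain name places the IAPP transgene under Ins2, an insulin gene, so that its product is made in beta cells. The labels give neither the sex of the mice, nor the copy number of the transgene, nor how many animals stand behind an array, so the spread between the arrays of a group may be technical. The other 4 arrays, 2 of wild-type and 2 of hIAPP mice given 4-phenylbutyrate (PBA) at 1 g/kg/day for 12 weeks from the age of 8 weeks, entered the model only to estimate the spread between arrays.

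Islet amyloid polypeptide is a peptide hormone that beta cells store and release together with insulin. The human form assembles into amyloid fibrils, whereas the mouse form does not, and mice that make the human peptide in beta cells are used to study islet amyloid. Amyloid in islets lies outside the cells, next to capillaries, in the niche shared by endothelial cells, pericytes and resident macrophages. A set of genes that most tissues use, called disallowed genes, is kept low in mature beta cells.

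Values are RMA levels on the log2 scale, on which a step of 1 is a change of 2-fold, and each of the 17097 genes was represented by 1 probe set. A gene was called when its adjusted p in limma was at most 0.05. Hormone genes that define islets were near the top of the scale on all 4 untreated arrays. Ins2 was at 14.0 and 14.1 on the wild-type arrays and at 14.0 and 14.1 on the hIAPP arrays, the highest levels in the table. The glucagon gene Gcg lay between 12.9 and 13.1 on the 4 arrays (0.15, SE 0.11, adjusted p = 0.4545). Values below are given in the order of wild-type arrays 1 and 2 and hIAPP arrays 1 and 2. RNA of the human transgene was not analysed here, so the genotype labels were not checked by it. Over 23 sets of control probes without a target, the median level was 3.1 and the 95th percentile 4.68, and levels below the latter are called background here. Pearson's correlation across genes was 0.9942 between the wild-type arrays and 0.9941 between the hIAPP arrays, against 0.9766 to 0.9809 between arrays of different genotype.

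More genes were called higher than lower in hIAPP islets. The split turned when each array was centred on its own median, but not with the other centring given below. Of the genes tested, 1329 (7.77%) were called higher and 545 (3.19%) lower in hIAPP islets, 1874 (11.0%) in all. Among them, 734 genes were at least 2-fold higher and 54 at least 2-fold lower, and 16 and 1 reached 8-fold. The called genes had a median log2 difference of 1.05 when raised and of -0.6 when lowered, beside -0.05 over all genes. In 391 of the raised genes the wild-type mean lay in the background range, so their differences can be compressed by it. In 135 called genes the means of both genotypes lay in the background range, at levels that control probes without a target also reach. The arrays of the genotypes did not overlap for any called gene, which was also true of 46.0% of all genes tested. With 2 arrays against 2, an exact permutation test of a single gene cannot give a two-sided p under 0.333, so every call rests on limma's estimate of the spread across genes. Leaving out hIAPP array 1, hIAPP array 2, wild-type array 1 or wild-type array 2 left 463, 658, 648 and 522 genes called higher and 109, 189, 111 and 87 called lower. In all 8 fits that left out 1 array, 368 raised and 56 lowered genes were called. The fit of the 4 untreated arrays alone called 353 and 130. The median level over genes was 5.7 on the wild-type and 5.9 on the hIAPP arrays. With each array centred on its own median, 1083 genes were called higher and 3266 lower. The share of calls that were higher went from 70.9% to 24.9%, and the median difference over all genes from -0.05 to -0.25. A centring on the median difference from the mean profile, added after the data were seen, gave 1461 and 463. With it the share was 75.9% and the median difference over all genes -0.02.

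**Figure D1:**
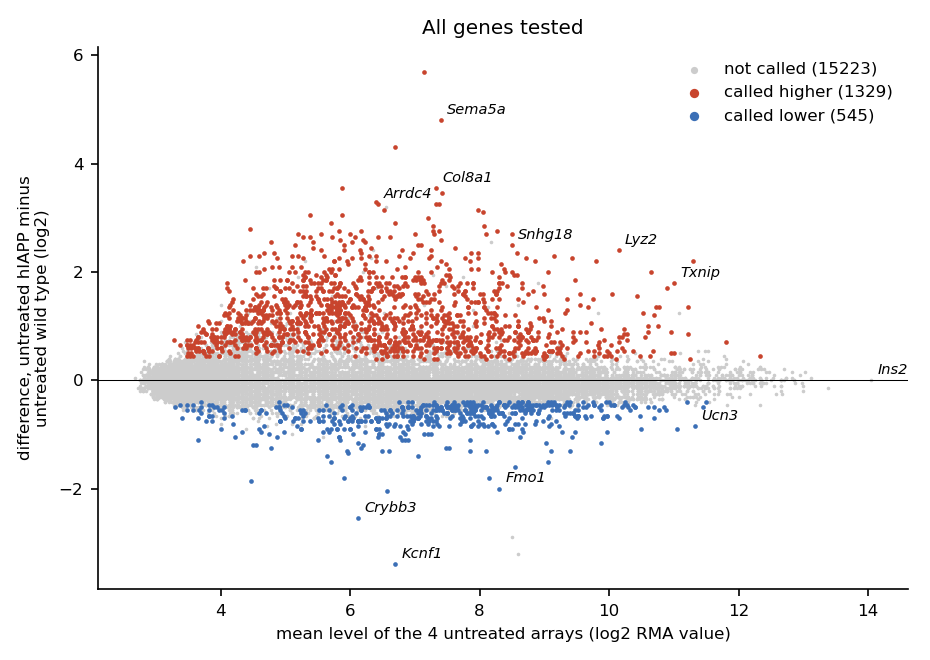
Each point is 1 of 17097 genes, placed by its mean level over the 4 untreated arrays (log2 RMA value) and by its difference, untreated hIAPP minus untreated wild type (log2). Red points are the 1329 genes called higher, blue points the 545 called lower; the raised genes reach 5.7 and the lowered ones -3.4, and Ins2 lies at 0 at the right end.

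Sema5a, which encodes a transmembrane semaphorin, a guidance protein with thrombospondin repeats, had the largest rise among the named genes. Its levels were 5.0 and 5.0 in wild-type and 9.8 and 9.8 in hIAPP islets. The arrays of each genotype gave the same rounded value, and the difference of 4.8 (SE 0.12, adjusted p = 1.4e-05) is a 27.9-fold change. Of the 4 probe sets that name Sema5a, 3 were called higher, with differences of 2.15 to 4.9, and the other was at 3.2 to 3.4 on all 4 arrays, in the background range. Sema5a lies on chromosome 15, at chr15:32244813-32696341 (GRCm38.p6). The nearest measured gene before it, Snhg18, a small nucleolar RNA host gene, went from 7.2 and 7.3 to 9.7 and 9.8 (difference 2.5, SE 0.1, adjusted p = 1.7e-04). The other 5 of its 6 nearest measured neighbours were not called, among them the syndecan gene Sdc2, which was at 7.8 and 8.0 against 8.4 and 8.5.

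Several of the other large rises were in genes of the matrix and of macrophages. Col8a1, a short-chain collagen, was at 5.6 and 5.5 in wild-type and at 9.1 and 9.1 in hIAPP islets (3.55, SE 0.23, adjusted p = 3.6e-04). Smoc2, a matricellular calcium-binding protein, went from 4.0 and 4.2, in the background range, to 7.9 and 7.4. Gpnmb, a glycoprotein of lipid-laden macrophages, went from 5.5 and 5.9 to 9.6 and 8.7 (3.45, SE 0.33, adjusted p = 0.0011), with hIAPP array 1 the higher. Mmp12, the macrophage elastase, was at 5.6 and 5.9 against 9.1 and 8.9. In these 4 genes the genotypes did not overlap, as was so for every called gene. Pla2g7, the platelet-activating factor acetylhydrolase, Ms4a7, a membrane protein of macrophages, the small proteoglycans Lum and Ogn, the periostin gene Postn, the fibroblast activation protein gene Fap, the secreted protein gene Crispld2 and Itgbl1 rose by 3.0 to 3.3. Ogn was called in 4 of the 8 fits without 1 array and Itgbl1 in 7. Igkv15-103, an immunoglobulin kappa segment whose probes can also read related segments, was at 5.9 and 3.2 against 8.6 and 9.1. Wild-type array 2 stood far below wild-type array 1 for it, and the call (4.3, SE 0.76, adjusted p = 0.0121) held in 4 of the 8 fits, in which its difference was 2.95 to 5.65. Left out by the naming rule for its provisional name, the protein-coding gene 1810009J06Rik on chromosome 6 had a larger difference than Sema5a (5.7, SE 1.17, adjusted p = 0.0227). It was at 4.7 and 3.9 in wild-type and at 8.4 and 11.6 in hIAPP islets, far apart on the hIAPP arrays, and it was called in 2 of the 8 fits. Wild-type array 1 and hIAPP array 2 were the higher of their genotype, as for the acinar markers below, and the part of exocrine RNA in it was not tested.

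**Figure D2:**
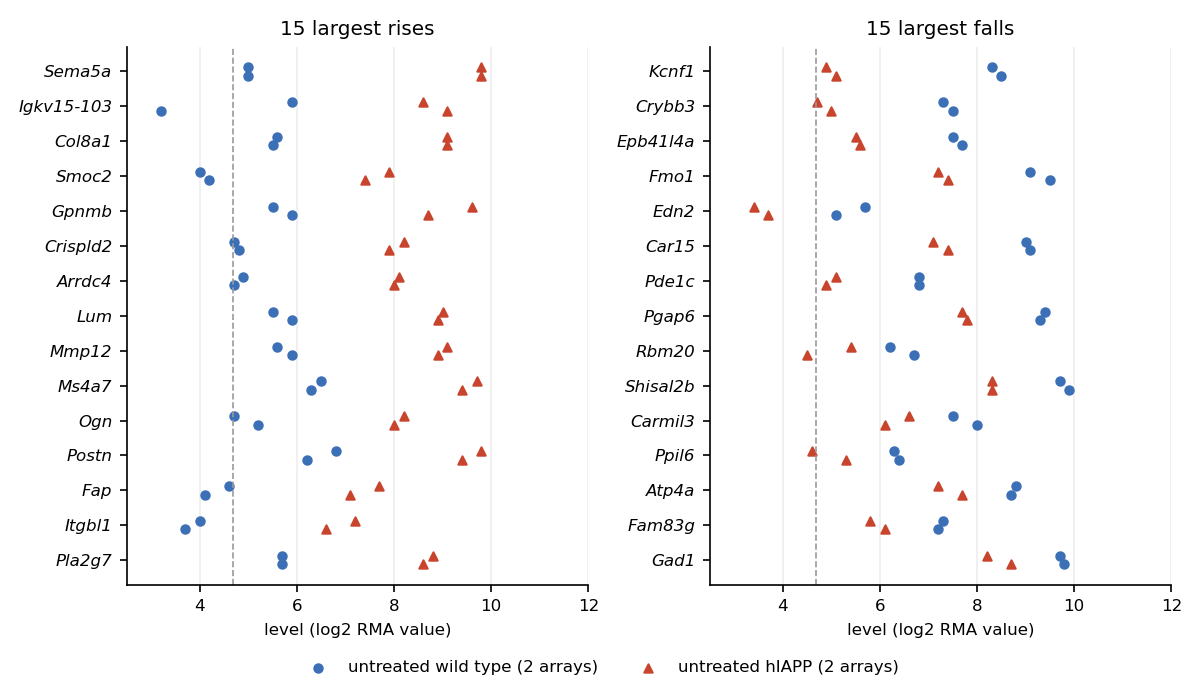
Levels (log2 RMA value) of 15 raised genes (left) and 15 lowered genes (right), ordered by size of change, with 1 point per array; circles are the 2 untreated wild-type and triangles the 2 untreated hIAPP arrays, and the dashed line marks background, 4.68. Sema5a moves from 5.0 to 9.8 and Kcnf1 from 8.3 and 8.5 to 4.9 and 5.1. All 30 genes were picked among those whose genotypes do not overlap, so their separation is set by the choice.

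The falls were fewer and were led by Kcnf1, which encodes a modifier subunit of voltage-gated potassium channels. It was at 8.3 and 8.5 in wild-type and at 4.9 and 5.1 in hIAPP islets, a change of -3.4 (SE 0.17, adjusted p = 2.1e-04). Both hIAPP arrays lay just above the background range. None of its 6 nearest measured neighbours on chromosome 12 was called. Crybb3, a beta-crystallin, fell from 7.3 and 7.5 to 4.7 and 5.0 (-2.55, SE 0.15). Epb41l4a, of the protein 4.1 family, fell from 7.5 and 7.7 to 5.5 and 5.6. Fmo1, a flavin-containing monooxygenase, fell from 9.1 and 9.5 to 7.2 and 7.4 (-2.0, SE 0.16, adjusted p = 5.9e-04), while the neighbouring genes Fmo2 (1.65) and Prrx1 (1.9) were called higher. The direction was thus not shared along this stretch of chromosome 1. Carbonic anhydrase gene Car15 fell from 9.0 and 9.1 to 7.1 and 7.4, and the calcium- and calmodulin-regulated phosphodiesterase gene Pde1c from 6.8 and 6.8 to 5.1 and 4.9. Gad1, which makes the transmitter GABA in beta cells, fell from 9.7 and 9.8 to 8.2 and 8.7 (-1.3, SE 0.16, adjusted p = 0.0033), and both of its probe sets were called lower. The other named falls, by 1.3 to 1.85, were those of Edn2, Pgap6, Rbm20, Shisal2b, Carmil3, Ppil6, Atp4a and Fam83g. Rbm20 was called in 1 and Edn2 in 5 of the 8 fits that each lacked an array. Over the autosomes and X, the share of tested genes called ran from 9.4% on chromosome 17 to 13.5% on chromosome 1, beside 11.0% over all, and 0 of 12 genes on Y were called.

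Part of the genes of collagens, laminins, proteoglycans and matricellular proteins were called higher in hIAPP islets, and no measured member of these lists was called lower. By list, 5 of 11 fibrillar collagens, 4 of 8 basement membrane collagens, 7 of 20 other collagens, 5 of 9 laminins and nidogens, 8 of 17 matrix proteoglycans and 16 of 28 matricellular and elastic fibre genes were called higher, beside 7.77% of all genes. The median difference was 0.3 over the fibrillar and 0.22 over the other collagens, most of which were not called. Col3a1, a fibrillar collagen of soft tissue, went from 10.0 and 9.3 to 11.8 and 11.5 (2.0, SE 0.26, adjusted p = 0.0038). Wild-type array 1 was the higher wild-type array, and the genotypes did not overlap, as was so for every called gene. Col1a1, the chain of type I collagen, was at 4.0 and 3.9 against 5.7 and 5.7, and its partner chain Col1a2 had a probe set in the background range on every array (3.4, 3.3, 3.7 and 3.5). The basement membrane chain Col4a1 went from 9.1 and 8.9 to 10.4 and 10.3 (1.35, SE 0.11, adjusted p = 6.4e-04). Type VI collagen, a beaded-filament collagen made of several chains, rose in 3 chains. Col6a2 went from 7.3 and 7.0 to 9.9 and 9.8, Col6a1 from 6.7 and 6.1 to 8.8 and 8.9, and Col6a3 from 7.6 and 7.3 to 9.2 and 9.1. The laminin chain Lama2 (5.3 and 5.2 against 7.6 and 7.5) and the linker protein Nid1 (7.4 and 7.5 against 9.0 and 9.1) were also higher. Without hIAPP array 1, the counts higher were 2 fibrillar, 1 basement membrane and 4 other collagens, 2 laminins and nidogens and 3 proteoglycans. Without wild-type array 1, wild-type array 2 or hIAPP array 2, 5 proteoglycans were called, without wild-type array 2, 1 basement membrane collagen, and without wild-type array 2 or hIAPP array 2, 2 laminins and nidogens. The matricellular count was at least 13 when any 1 array was left out and 9 with the untreated arrays alone.

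Among the matricellular genes the median difference was 1.6, beside -0.05 over all genes. Postn, made by fibroblasts in healing tissue, was at 6.8 and 6.2 against 9.8 and 9.4 (3.1, SE 0.22, adjusted p = 4.7e-04). Fbln5, needed to assemble elastic fibres, went from 6.8 and 6.7 to 9.4 and 9.5, and the elastin gene Eln rose by 1.8. Ccn2, a target of TGF-beta signalling, went from 7.4 and 7.8 to 10.0 and 9.7 (2.25, SE 0.17, adjusted p = 5.1e-04). Sparc, a collagen-binding protein, was abundant in both genotypes, at 10.2 and 10.0 against 11.4 and 11.5. The fibronectin gene Fn1 was not called: it was at 9.3 on wild-type array 1, at 6.7 on wild-type array 2 and at 9.7 and 9.9 on the hIAPP arrays (1.8, SE 0.71, adjusted p = 0.1668).

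Of 21 genes of collagen processing and cross-linking, 8 were called higher and 13 were not called, with a median difference of 0.25, among them the cross-linking oxidases Loxl1 (4.7 and 4.4 against 7.2 and 7.1) and Lox (4.8 and 4.4 against 6.6 and 6.4) and the collagen chaperone Serpinh1 (8.1 and 7.9 against 9.7 and 9.6). Metalloproteinase genes were called higher for 9 of 25, with a median of 0.4. Mmp2, the gelatinase of stromal cells, went from 4.9 and 5.3 to 7.7 and 7.4 and its activator Mmp14 from 5.4 and 4.7 to 7.6 and 7.0. Their inhibitors moved in the same direction: Timp1 went from 4.7 and 5.1 to 6.5 and 6.7, Timp2 from 8.8 and 8.4 to 10.1 and 10.1, and Timp3 and Reck were called too. With the 4 untreated arrays alone, 2 metalloproteinases and 0 inhibitors were called. Without hIAPP array 1, 4 metalloproteinases were called, and the inhibitors called were 2, 3, 2 and 2 without wild-type arrays 1 and 2 and hIAPP arrays 1 and 2 in turn. In the TGF-beta pathway 8 of 19 genes were higher, and 3 with the 4 untreated arrays alone. The ligand gene Tgfb3 was at 4.7 and 4.6 against 6.3 and 6.3, the receptor gene Tgfbr2 at 7.7 and 7.4 against 9.3 and 9.3 (1.75, SE 0.12, adjusted p = 4.5e-04), and Ltbp1, which holds the latent ligand in the matrix, at 3.9 and 4.0 against 6.2 and 6.3. Tgfb1 itself was in the background range on every array, and its call (0.55, adjusted p = 0.0482) was lost in all 8 fits without 1 array. The pathway count was 5 without wild-type array 1 or 2 and 4 without hIAPP array 1 or 2.

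Markers of stellate cells and pericytes, the contractile cells that wrap islet capillaries and make matrix, were called higher for 13 of 18, with a median difference of 1.58. The median level of the list was 5.1 and 5.1 in wild-type and 7.15 and 7.1 in hIAPP islets. Acta2, smooth muscle actin, went from 8.1 and 8.5 to 10.6 and 10.5 (2.25, SE 0.15, adjusted p = 3.8e-04). Rgs5, a pericyte regulator of G protein signalling, was at 10.5 and 10.6 against 12.0 and 11.8, Pdgfrb, the receptor for PDGF, at 5.2 and 5.5 against 7.5 and 7.2, and the fibroblast surface protein Thy1 at 4.7 and 4.7 against 7.1 and 7.1. In islet RNA as a whole, a larger number of such cells and more RNA per cell cannot be told apart, and this holds for every cell marker below. Without hIAPP array 1, 7 of the 13 calls were left, and with the 4 untreated arrays alone, 4.

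Blood endothelial markers shifted less, with a median difference of 0.6, and 15 of 24 were called higher. With the 4 untreated arrays alone, 2 were called. Pecam1, a junction protein of all endothelium, was at 7.1 and 7.2 against 8.3 and 8.2 (1.1, SE 0.15, adjusted p = 0.0045), and Vwf, the von Willebrand factor, at 6.3 and 6.3 against 8.6 and 8.2. Ptprb, an endothelial phosphatase, was at 8.3 and 8.2 against 9.3 and 9.1. The count was 7, 6, 3 and 9 without wild-type arrays 1 and 2 and hIAPP arrays 1 and 2 in turn, and 10 when each array was centred on its median. Markers of Schwann cells and nerves were called higher for 4 of 10, and for at most 2 when any 1 untreated array was left out, and included the myelin gene Pmp22 (7.1 and 6.8 against 8.6 and 8.6). Among lymphatic markers, the hyaluronan receptor gene Lyve1, which resident macrophages also carry, fell from 8.0 and 8.2 to 7.0 and 6.7, and Pdpn rose from 4.8 and 4.2 to 5.9 and 6.2.

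**Figure D3:**
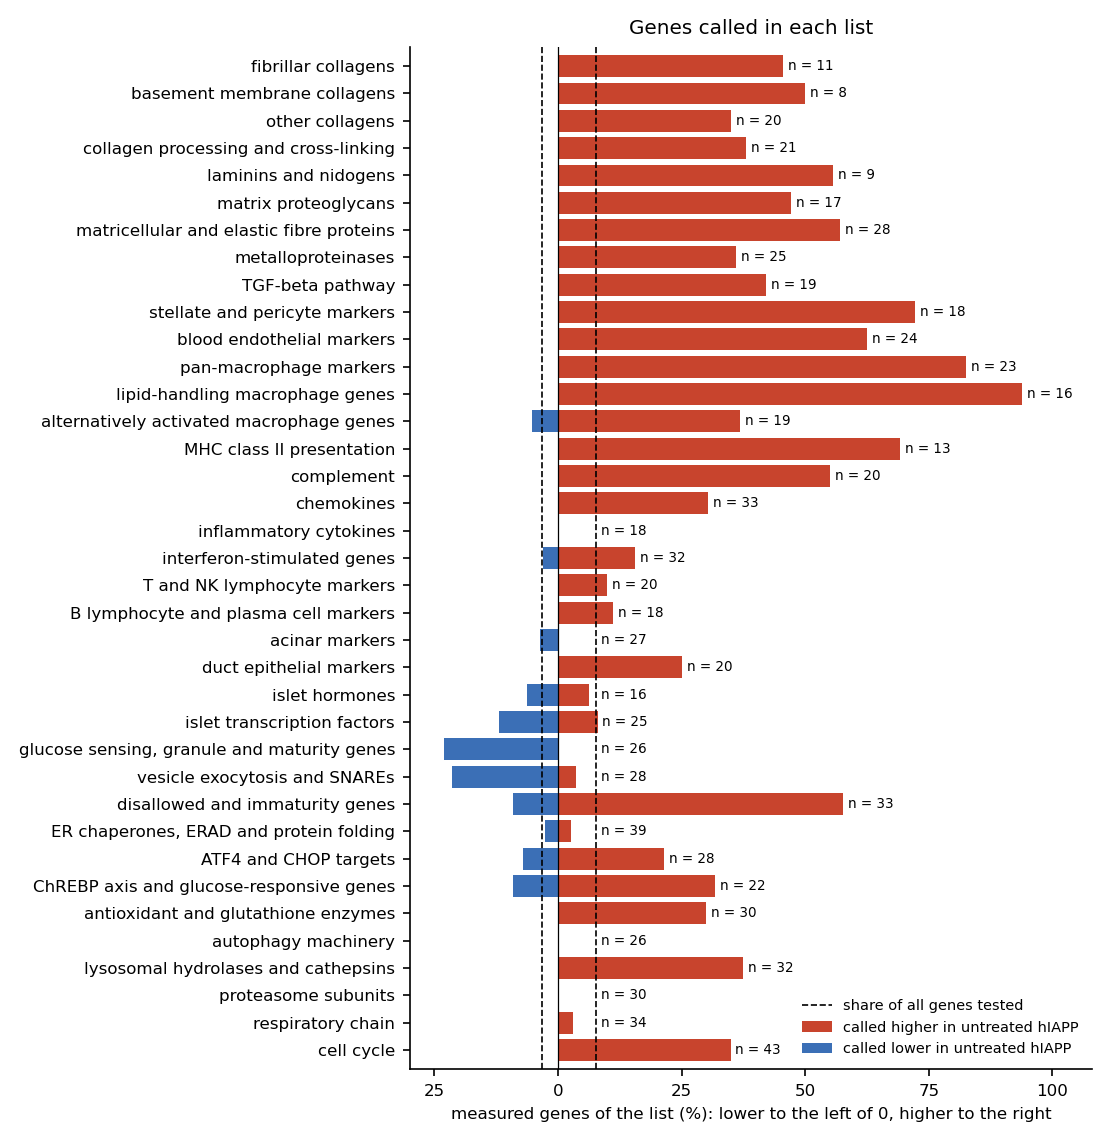
Bars give the percent of measured genes of each list that were called higher (red, right of 0) or lower (blue, left of 0) in untreated hIAPP islets, with n the measured genes; dashed lines are the shares over all 17097 genes, 7.77% higher and 3.19% lower. Macrophage, stromal, endothelial and matrix lists lie far right of the line, and autophagy, proteasome and cytokine lists have no calls.

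Most macrophage genes were higher. Islets hold resident macrophages next to their capillaries, and these take up material released by beta cells. Of 23 pan-macrophage markers, 19 were called higher and none was lower, with a median difference of 1.5. The median level of the list was 6.1 and 6.2 in wild-type and 8.0 and 7.9 in hIAPP islets, so the markers were present in both genotypes. Adgre1, which encodes F4/80, was at 5.2 and 5.2 against 7.2 and 6.7 (1.75, SE 0.17, adjusted p = 0.0011). The lysosomal protein Cd68 went from 6.0 and 6.2 to 8.9 and 8.5, and lysozyme, Lyz2, from 9.0 and 8.9 to 11.5 and 11.2 (2.4, SE 0.15, adjusted p = 3.0e-04). The pore-forming protein Mpeg1 was at 8.1 and 8.0 against 10.0 and 10.1. Integrin Itgam, which is high on macrophages that come from blood monocytes, was not called, at 4.2 and 3.9 against 5.0 and 4.5 (adjusted p = 0.0617). At least 13 markers were called when any 1 array was left out, and 7 with the untreated arrays alone.

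Genes of lipid-handling macrophages, a state seen where macrophages clear lipid or debris, were called higher for 15 of 16, with a median difference of 1.6. This list holds Gpnmb and Mmp12, described above. Trem2, the lipid receptor that is needed for this state in other tissues, rose by 2.35. Other members of the list rose as well. Apoe, the lipid carrier, went from 10.1 and 10.0 to 11.9 and 11.6 (1.7, SE 0.13, adjusted p = 5.2e-04). The galectin gene Lgals3 went from 7.8 and 8.2 to 10.5 and 10.1, and the fatty acid binding protein gene Fabp5 from 8.5 and 8.6 to 10.6 and 10.2. Cd9 was at 7.6 and 7.9 against 9.6 and 9.5. The lipoprotein lipase gene Lpl was the 1 member not called, at 10.8 and 10.8 against 10.7 and 10.6. The count was 9 without wild-type array 2 and 10 without hIAPP array 1, and 4 with the untreated arrays alone. Genes of alternatively activated macrophages were mixed, with 7 of 19 higher and Lyve1 lower. The mannose receptor gene Mrc1 was at 4.9 and 4.6 against 6.1 and 6.4, and the arginase gene Arg1 at 7.7 and 7.9 against 8.1 and 8.0, which was not called. The count higher was 2 without wild-type array 2 or hIAPP array 2 and 3 without hIAPP array 1.

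Inflammatory cytokine genes were not called in either direction: limma called 0 of 18, beside 11.0% of all genes. At an unadjusted p under 0.05 there were 2, both higher, and limma called 1 when wild-type array 1 or hIAPP array 2 was left out. Il1b, which hIAPP aggregates are known to induce in cultured macrophages, was at 5.4 and 5.6 against 5.9 and 5.7 (0.3, adjusted p = 0.2995). The tumour necrosis factor gene Tnf was at 4.0, 3.9, 3.9 and 4.1, in the background range on each array, as were 13 of the 18 in both genotypes, where a difference would not be seen. Among genes of the inflammasome and interleukin 1 signalling, 5 of 12 were called higher. The decoy receptor gene Il1r2 was at 5.3 and 5.1 against 7.1 and 7.0 (1.85, SE 0.17, adjusted p = 9.8e-04) and Casp4 at 5.3 and 5.0 against 6.5 and 6.4, whereas the sensor gene Nlrp3 was at 3.7, 4.0, 3.7 and 3.9. When any 1 untreated array was left out, 2 were called.

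Chemokine genes were called higher for 10 of 33, and for 2 with the 4 untreated arrays alone. Ccl9 went from 5.7 and 5.8 to 7.2 and 7.4 (1.55, SE 0.12, adjusted p = 5.6e-04), Ccl19, which draws dendritic and T cells, from 5.8 and 6.4 to 8.4 and 8.3, and the stromal ligand Cxcl12 from 7.2 and 6.9 to 8.1 and 8.4. The monocyte attractant gene Ccl2 was not called, at 5.3, 4.4, 4.5 and 4.3. The chemokine count was 5 without wild-type array 2. Complement genes were called higher for 11 of 20, and for 1 with the 4 untreated arrays alone. The classical pathway subunits C1qb (7.5 and 7.6 against 9.7 and 9.3) and C1qc (7.5 and 7.3 against 9.4 and 9.0), the proteases C1ra and C1s1 and the component C4b (7.3 and 7.3 against 8.9 and 8.7) rose, as did the inhibitor gene Serping1. The complement count was 6 without wild-type array 2, 5 without hIAPP array 1 and 7 without hIAPP array 2. MHC class II and presentation genes were called higher for 9 of 13 (0 with the 4 untreated arrays alone), with a median difference of 0.55. Of these, 2 were at least 2-fold higher, the cathepsin gene Ctss (9.9 and 9.9 against 11.3 and 11.0), which frees class II molecules from their chaperone, and H2-Ob (4.3 and 3.7 against 5.3 and 5.3). Smaller differences were those of H2-Ab1 (9.0 and 8.7 against 9.4 and 9.4) and the invariant chain Cd74 (8.8 and 8.8 against 9.3 and 9.4). The count was 5, 2, 3 and 2 without wild-type arrays 1 and 2 and hIAPP arrays 1 and 2 in turn, and 5 when each array was centred on its median. Of 32 interferon-stimulated genes, 5 (15.6%) were higher and 1, Irf9, lower (3.12%), beside 7.77% and 3.19% of all genes. The median of the list was 0.25. Ifitm3 went from 9.0 and 8.7 to 10.2 and 10.3 and Rsad2 from 6.5 and 6.3 to 7.7 and 7.6. The interferon count was 3 without wild-type array 1 or hIAPP array 1, and Irf9 was not called when any 1 untreated array was left out.

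Lymphocyte markers were called higher at shares near the 7.77% of all genes. T and NK cell markers were called for 2 of 20 (10.0%), Cd3d and Icos, of which 0 were called without wild-type array 2 or hIAPP array 1, and 17 of the 20 were in the background range in both genotypes. For B and plasma cells, 2 of 18 (11.1%) were called, Blnk (5.8 and 5.8 against 7.3 and 7.5), which macrophages also express, and Derl3. The median difference of this list was nevertheless 0.75, with 15 of the 18 differences above 0, and 8 were higher at limma's unadjusted p under 0.05. Wild-type array 2 stood apart for this list, whose median level was 5.2 and 4.1 in wild-type and 5.5 and 5.95 in hIAPP islets. The B cell surface gene Ms4a1 was at 7.9 and 4.7 in wild-type and at 7.8 and 8.7 in hIAPP islets, and Jchain, of plasma cells, at 8.5 and 5.3 against 9.5 and 9.4. When wild-type array 1 was left out, 5 markers were called higher, and 1 when any other untreated array was. Igkv15-103, above, has the same low wild-type array, and the part of such cells in its call was not tested. Of 16 neutrophil and mast cell markers, 1 was lower and 1, the mast cell receptor gene Kit (0.7), higher, with a median of -0.05. This is 6.25% each way, beside 3.19% lower and 7.77% higher over all genes. The neutrophil gene S100a8 fell from 6.6 and 7.0 to 5.5 and 5.6 (-1.25, SE 0.16, adjusted p = 0.0036). S100a8 was not called without hIAPP array 1, and Kit was not called when any 1 untreated array was left out.

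**Figure D4:**
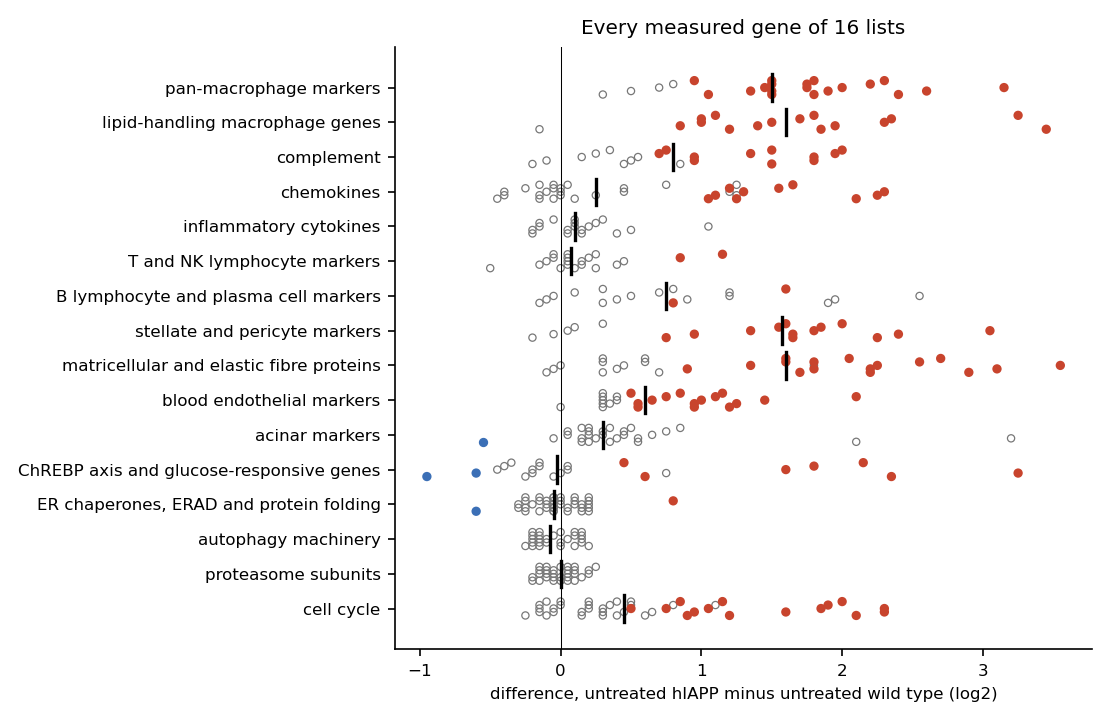
Each circle is 1 measured gene of a list, placed by its difference between untreated hIAPP and untreated wild-type islets (log2); filled circles were called (red higher, blue lower), open ones were not, and black bars are list medians. The macrophage and stromal medians are at 1.5 to 1.6, whereas the chaperone, autophagy and proteasome genes lie close to 0.

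Hormone genes of the endocrine cells were called for 2 of 16, a share near the 11.0% of all genes. The amidating enzyme gene Pam was called higher (9.8 and 9.7 against 10.3 and 10.2) and neuropeptide Y, Npy, lower (8.5 and 8.5 against 7.2 and 7.2; -1.3, SE 0.18, adjusted p = 0.0042). Neither call was made when any 1 untreated array was left out. Somatostatin, Sst, was at 12.6, 12.8, 12.7 and 12.5 and pancreatic polypeptide, Ppy, at 13.4, 13.5, 13.3 and 13.3, and neither was called.

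Genes of glucose sensing, granules and beta-cell maturity were called lower for 6 of 26 (23.1%, beside 3.19% of all genes) and higher for 0. Of the 26, 21 had a difference below 0 and 2 above, with a median of -0.25. Ucn3, urocortin 3, a peptide of mature beta cells that stimulates neighbouring delta cells, went from 11.7 and 11.8 to 10.9 and 10.9 (-0.85, SE 0.12, adjusted p = 0.0051). Trpm5, a cation channel that supports glucose-stimulated secretion, fell from 10.1 and 10.0 to 8.6 and 8.9 (-1.3, SE 0.14, adjusted p = 0.0021). The granule-docking protein gene Sytl4 fell from 11.4 and 11.6 to 10.6 and 10.6, and pyruvate carboxylase, Pcx, which refills the citric acid cycle, from 9.7 and 9.6 to 9.0 and 9.0. Gipr, a receptor of the incretin GIP, fell from 6.1 and 6.1 to 5.4 and 5.3, and Shisal2b from 9.7 and 9.9 to 8.3 and 8.3. In these 6 genes both hIAPP arrays lay below both wild-type arrays, which was so for every gene called lower. The genotypes did not overlap in 46.0% of all genes tested. The glucose transporter gene Slc2a2 was not called, at 12.0 and 12.1 against 11.5 and 11.7 (-0.45, SE 0.13, adjusted p = 0.0823). Glp1r, the receptor of GLP-1, was at 9.9 and 9.6 against 8.9 and 9.5 and was not called either. The count was 4 without wild-type array 2 or either hIAPP array and 16 when each array was centred on its median.

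Transcription factors of the islet had 3 of 25 genes lower (12.0%, beside 3.19% of all genes) and 2 higher (8.00%, near the 7.77% of all genes). Mnx1, a homeobox factor of the beta-cell lineage, fell from 7.7 and 7.7 to 6.9 and 6.8, Pax6 from 10.9 and 11.0 to 10.4 and 10.5 and Neurod1 from 11.6 and 11.8 to 11.1 and 11.3. Hhex, a factor of delta cells, rose from 7.4 and 7.4 to 8.1 and 8.3, and Etv1 from 9.0 and 9.2 to 9.8 and 9.9. Pdx1, the factor that activates insulin and many other beta-cell genes, was at 9.4 and 9.4 against 8.9 and 9.0, and was not called (-0.45, SE 0.12, adjusted p = 0.0624). Its other probe set was called lower, at 6.5 and 6.8 against 6.0 and 5.7. Nkx6-1 was at 10.7 and 10.6 against 10.2 and 10.4 and was not called. None of the 5 calls held in all 8 fits without 1 array, and without wild-type array 1 none was made. With each array centred on its median, 10 factors were called lower.

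Genes of vesicle exocytosis were called lower for 6 of 28 (21.4%, beside 3.19% of all genes) and higher for 1 (3.57%, beside 7.77%). Beside Sytl4, these were the synaptotagmins Syt13 (11.2 and 11.1 against 10.6 and 10.6) and Syt14, the small GTPases Rab27a and Rab3a and the effector Rph3al, which fell by 0.45 to 0.9, while Cadps2 rose by 0.65. Without wild-type array 1 or 2 the count lower was 1, Sytl4, and without hIAPP array 1 or 2 it was 2; with each array centred on its median it was 15. Among 20 ion channel genes, Kcnf1 and Kcnh2 (8.5 and 8.4 against 7.9 and 8.0) were called lower and the sodium channel gene Scn3a (6.0 and 6.3 against 6.9 and 7.0) higher. Kcnh2 was not called when any 1 untreated array was left out, and Scn3a was called in that case only without wild-type array 2. In the cyclic nucleotide phosphodiesterase and carbonic anhydrase list, 4 of 31 (12.9%) were lower, which were Car15, Pde1c, Pde10a (8.1 and 8.2 against 6.7 and 7.1) and Pde4b. In the same list 2 (6.45%) were higher, Pde2a (1.4) and Pde4d (0.4), beside 3.19% lower and 7.77% higher over all genes. Without wild-type array 1, wild-type array 2 or hIAPP array 1, 2 were lower and 0 higher.

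Disallowed and immaturity genes were called higher for 19 of 33 and lower for 3, with a median difference of 0.9. Aldh1a3, an aldehyde dehydrogenase that marks dedifferentiating beta cells, went from 7.4 and 7.4 to 9.9 and 9.6 (2.35, SE 0.12, adjusted p = 2.3e-04). All 3 of its probe sets were called higher. The repressor gene Rest, which is silenced in beta cells and neurons, went from 4.5 and 4.5, in the background range, to 6.2 and 6.1. Ldha, lactate dehydrogenase, was at 7.5 and 7.3 against 8.8 and 8.7 (1.35, SE 0.15, adjusted p = 0.0022), Slc16a1, the lactate and pyruvate carrier, rose by 1.05, and hexokinase genes Hk1 and Hk2 by 0.75 and 0.55. Catalase, Cat, was at 6.2 and 6.3 against 7.8 and 7.9, and the growth regulator Yap1 at 5.6 and 5.5 against 7.1 and 6.9. Monoamine oxidase, Maob, Npy and Dapp1 were the 3 that fell. Most tissues use disallowed genes, and Pdgfrb, Pcolce, Cxcl12 and Mylk in this list are genes of stromal cells. Markers of stromal, endothelial and macrophage cells were higher on the same arrays. The part of those cells in the count was not tested for any member. The count higher was 9 without wild-type array 2 or hIAPP array 1 and 10 without hIAPP array 2.

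**Figure D5:**
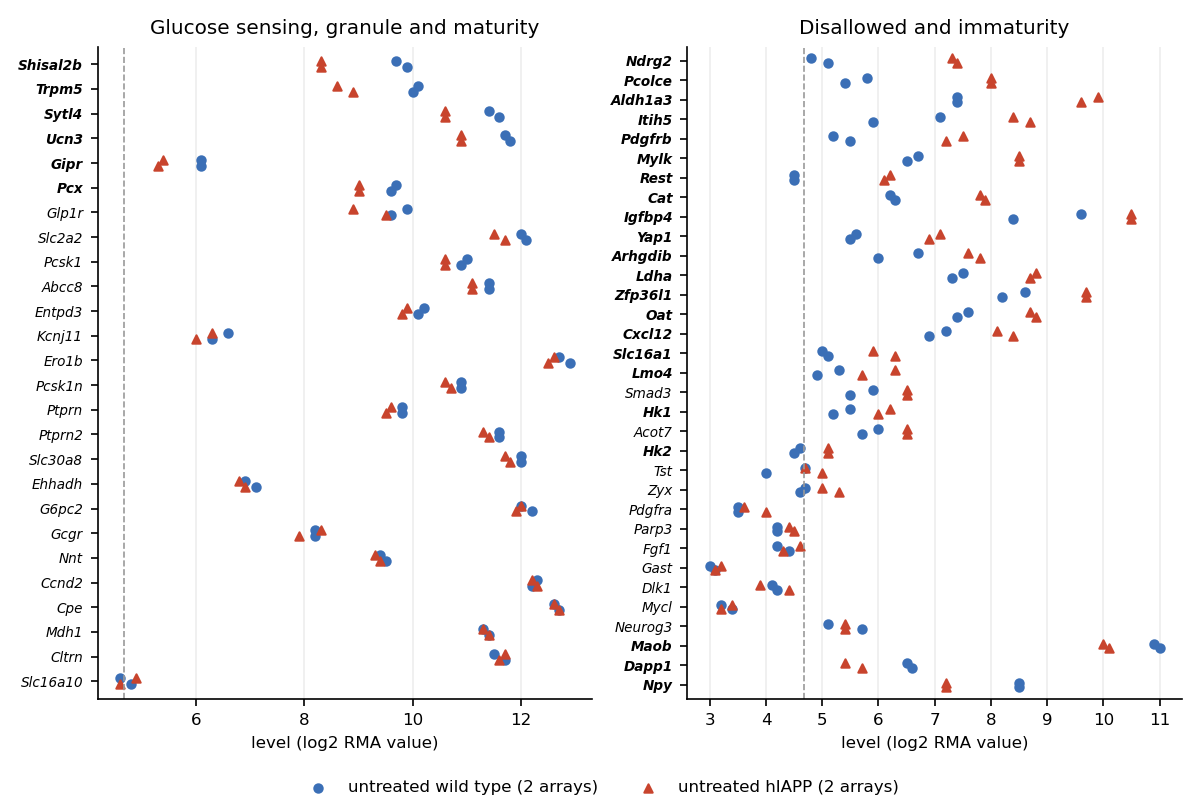
Levels (log2 RMA value) of every measured gene of the glucose sensing, granule and maturity list (left) and of the disallowed and immaturity list (right), 1 point per array; circles are untreated wild-type and triangles untreated hIAPP arrays, bold names were called, and the dashed line marks 4.68. On the left 6 genes were called, all lower; on the right 19 were called higher and 3 lower.

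Few genes of the endoplasmic reticulum stress response were called. Chaperones, folding enzymes and genes of ER-associated degradation were called higher for 1 of 39 (2.56%) and lower for 1, with a median of -0.05. Over all genes 7.77% were called higher and 3.19% lower. The chaperone gene Hspa5, which encodes BiP, was at 11.4 and 11.5 against 11.6 and 11.6 (0.15, SE 0.12, adjusted p = 0.5157). The calls were Derl3, which went from 8.0 and 7.8 to 8.6 and 8.8, and the oxidase Ero1a, which fell from 9.1 and 9.1 to 8.5 and 8.5. When any 1 untreated array was left out, neither was called. Xbp1, whose spliced product drives part of this response, was at 11.9, 11.9, 11.8 and 11.9, and its spliced form was not measured apart.

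Among targets of ATF4 and CHOP, factors of the integrated stress response, 6 of 28 were higher and 2 lower. These were 21.4% and 7.14%, beside 7.77% and 3.19% of all genes. With the 4 untreated arrays alone, 0 were called in either direction. Ddit4, an inhibitor of mTORC1, went from 8.3 and 8.3 to 9.3 and 9.1 (0.9, SE 0.11, adjusted p = 0.0026) and Eif4ebp1, a translational repressor, from 7.1 and 7.1 to 7.8 and 8.0. Chac1 and Slc7a5, also ATF4 targets, fell by 0.4. Ddit3, which encodes CHOP, was at 8.3 and 8.2 against 8.6 and 8.4, Atf4 at 10.7 and 10.7 against 10.5 and 10.6, and Trib3 at 5.5 and 5.6 against 6.1 and 5.6; none of them was called. Without wild-type array 2 or hIAPP array 1, 2 were called higher, without hIAPP array 2, 3, and when any 1 untreated array was left out 0 were called lower. The heat shock list had 3 of 16 higher, and these were the collagen chaperone Serpinh1, Bag3 and Hspb1, and 1 without wild-type array 2 or hIAPP array 1. Proteasome subunits (0 of 30 called) and autophagy genes (0 of 26) had differences of -0.2 to 0.25 and -0.25 to 0.2, and limma called none in the 8 fits without 1 array. At an unadjusted p under 0.05 there were 1 proteasome and 0 autophagy genes. When each array was centred on its median, 10 genes of the chaperone list and 4 each of the proteasome and autophagy lists were called lower. So were 8 genes of the respiratory chain list, given below.

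Genes that respond to glucose through ChREBP, a transcription factor that binds E-box pairs together with its partner Mlx, were called higher for 7 of 22 and lower for 2. These were 31.8% and 9.09%, beside 7.77% and 3.19% of all genes. With each array centred on its median, 5 were higher and 6 lower. Arrdc4, an alpha-arrestin, went from 4.9 and 4.7 to 8.1 and 8.0 (3.25, SE 0.13, adjusted p = 1.8e-04), and its relative Txnip, which binds thioredoxin and limits glucose uptake, from 10.0 and 10.2 to 12.0 and 11.8 (1.8, SE 0.13, adjusted p = 4.9e-04). Both probe sets of each gene were called higher. Rgs16, a regulator of G protein signalling, was at 7.4 and 7.1 against 9.4 and 9.4, Klf10 at 7.4 and 7.5 against 9.1 and 9.0 and the growth factor gene Pdgfc at 3.4 and 3.6 against 6.1 and 5.6. In other members the direction was the opposite: the fatty acid elongase gene Elovl6 fell from 8.7 and 8.8 to 7.8 and 7.8 (-0.95, SE 0.1, adjusted p = 0.0014) and Mlx itself from 8.5 and 8.4 to 7.9 and 7.8. Mlxipl, which encodes ChREBP, was at 10.2 and 10.2 against 10.0 and 9.7 and was not called. The list's median of -0.02 lay near that of all genes. Without wild-type array 1 or hIAPP array 1, 4 were called higher, and when any 1 untreated array was left out 1 was called lower.

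The promoters of these arrestin genes are shown because the pair rose together, from RefSeq on GRCm38.p6, each from 250 bases before to 50 after the start. Txnip is at chr3:96557707-96558006 on the plus strand and Arrdc4 at chr7:68749189-68749488 on the minus strand, and each is written 5′ to 3′ along its gene. Capitals mark the E-box CACGTG and the CCAAT box on either strand (CCAAT or ATTGG).
Txnip: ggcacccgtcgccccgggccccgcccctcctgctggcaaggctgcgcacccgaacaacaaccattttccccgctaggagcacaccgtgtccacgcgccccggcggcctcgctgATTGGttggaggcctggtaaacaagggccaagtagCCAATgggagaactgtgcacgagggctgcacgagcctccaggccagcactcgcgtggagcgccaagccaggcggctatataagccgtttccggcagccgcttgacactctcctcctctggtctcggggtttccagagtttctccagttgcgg
Arrdc4: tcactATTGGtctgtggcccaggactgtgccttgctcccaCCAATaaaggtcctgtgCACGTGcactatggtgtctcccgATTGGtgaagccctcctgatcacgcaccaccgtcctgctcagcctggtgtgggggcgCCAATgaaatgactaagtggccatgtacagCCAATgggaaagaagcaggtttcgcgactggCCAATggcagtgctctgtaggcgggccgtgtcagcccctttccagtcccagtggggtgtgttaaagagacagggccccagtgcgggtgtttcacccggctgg
Arrdc4 has 1 exact CACGTG and 6 CCAAT boxes in this window, and Txnip has 0 and 2. Inexact copies of the E-box and pairs of E-boxes were not searched for. The 0 for Txnip therefore does not mean that it lacks a ChREBP site. The exact CACGTG was present in 4 of the 19 listed genes with a promoter in the table, and in 10.2% of the 13605 tested genes that have one. Among genes called higher the share was 9.80%. A match is a description of the letters only.

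Antioxidant and glutathione enzymes were higher for 9 of 30. Gpx3, a secreted glutathione peroxidase, was at 10.0 and 10.2 against 11.2 and 11.0, Prdx4, a peroxiredoxin of the ER, at 9.2 and 9.0 against 9.8 and 9.8, and the regulator Nfe2l2 at 8.8 and 8.8 against 9.2 and 9.2. The count was 4, 2, 1 and 3 without wild-type arrays 1 and 2 and hIAPP arrays 1 and 2 in turn, and catalase was called in each. Lysosomal hydrolases and cathepsins were higher for 12 of 32, and for 1 with the 4 untreated arrays alone. Cathepsins Ctsh (6.4 and 6.2 against 8.6 and 8.4), Ctsk (5.8 and 5.8 against 8.2 and 7.6), Ctsc, Ctss and Ctsd rose by 1.2 to 2.2, and these are abundant in macrophages, of whose markers 19 of 23 were higher on the same arrays; their part in the result was not tested. The count was 6 without wild-type array 1 or hIAPP array 1 and 5 without wild-type array 2. Genes of proteins found in amyloid or able to degrade it were called higher for 8 of 29 and lower for 0, and higher for 4 without wild-type array 2 or hIAPP array 1. The amyloid component Vtn, vitronectin, was at 7.3 and 7.2 against 8.9 and 8.8, Gsn, gelsolin, at 10.0 and 10.1 against 11.5 and 11.3 and the heparan sulphate proteoglycan Sdc4 at 8.8 and 8.8 against 9.5 and 9.5. Apoe, above, belongs here as well. Insulin-degrading enzyme, Ide, which cleaves the islet peptide, was at 8.5 and 8.5 against 8.5 and 8.7 (0.1, SE 0.12, adjusted p = 0.663). A second, dimmer probe set of Ide was called lower, at 5.2 and 5.2 against 4.3 and 4.0, and the other 2 were not called. Neprilysin, Mme, was in the background range, at 3.2, 3.1, 3.3 and 3.2. The serum amyloid P gene Apcs was at 3.4 and 3.7 against 4.4 and 3.9, also background.

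Cell cycle genes were called higher for 15 of 43 and lower for 0, with a median difference of 0.45. Mki67, which marks cycling cells, went from 4.3 and 3.8 to 6.4 and 6.3 (2.3, SE 0.18, adjusted p = 5.8e-04). Topoisomerase Top2a went from 3.4 and 3.2 to 5.8 and 5.4, the mitotic kinase gene Cdk1 from 4.2 and 3.5 to 6.1 and 5.8 and the ubiquitin-conjugating enzyme gene Ube2c from 3.7 and 3.4 to 5.4 and 5.7. In these 4 genes the wild-type arrays were in the background range and the hIAPP arrays above it. The helicase subunit Mcm6 was at 5.5 and 5.1 against 6.8 and 7.0. An inhibitor of the cycle rose too: Cdkn1a, which encodes p21, was at 7.2 and 7.0 against 8.0 and 8.1. Which cells in the islet preparations carried these transcripts was not measured. The count was 8 without wild-type array 1 or hIAPP array 1, 9 without wild-type array 2, 10 without hIAPP array 2, and 1 with the 4 untreated arrays alone.

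Promoters of 4 cell cycle genes are shown because they hold the elements known to bind the factors of late cell cycle genes. Capitals mark the CHR element (TTTGAA or TTCAAA) and the CCAAT box (CCAAT or ATTGG), on either strand. They lie at chr7:135716330-135716629 (Mki67, minus strand), chr11:99024140-99024439 (Top2a, minus strand), chr10:69352863-69353162 (Cdk1, minus strand) and chr2:164769679-164769978 (Ube2c, plus strand) of GRCm38.p6, from RefSeq.
Mki67: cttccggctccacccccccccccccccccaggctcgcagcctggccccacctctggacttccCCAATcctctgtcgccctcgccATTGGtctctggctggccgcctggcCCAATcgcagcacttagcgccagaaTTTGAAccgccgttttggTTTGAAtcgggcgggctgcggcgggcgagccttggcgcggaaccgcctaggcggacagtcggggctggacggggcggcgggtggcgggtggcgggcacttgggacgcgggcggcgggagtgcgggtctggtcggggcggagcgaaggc
Top2a: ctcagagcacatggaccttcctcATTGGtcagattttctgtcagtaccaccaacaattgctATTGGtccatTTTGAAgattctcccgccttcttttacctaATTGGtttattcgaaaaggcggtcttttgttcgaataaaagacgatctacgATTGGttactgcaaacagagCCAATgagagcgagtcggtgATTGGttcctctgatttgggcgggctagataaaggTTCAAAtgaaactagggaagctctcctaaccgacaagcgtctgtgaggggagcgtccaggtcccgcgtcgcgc
Cdk1: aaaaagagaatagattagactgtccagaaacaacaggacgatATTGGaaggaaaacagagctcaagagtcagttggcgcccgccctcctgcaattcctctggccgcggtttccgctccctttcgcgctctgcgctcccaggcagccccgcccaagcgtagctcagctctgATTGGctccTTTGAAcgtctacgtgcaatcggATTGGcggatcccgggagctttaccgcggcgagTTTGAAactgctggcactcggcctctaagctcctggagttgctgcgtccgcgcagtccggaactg
Ube2c: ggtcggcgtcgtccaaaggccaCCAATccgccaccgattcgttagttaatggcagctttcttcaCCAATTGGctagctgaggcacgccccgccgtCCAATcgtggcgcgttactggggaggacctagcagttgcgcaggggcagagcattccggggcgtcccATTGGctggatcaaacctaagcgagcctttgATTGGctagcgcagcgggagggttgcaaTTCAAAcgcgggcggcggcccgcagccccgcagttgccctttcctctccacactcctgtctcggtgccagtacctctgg
Mki67, Top2a and Cdk1 have 2 CHR elements each and Ube2c has 1, and their CCAAT boxes number 3, 6, 3 and 6. Of the 11 raised cell cycle genes with a promoter in the table, 6 hold a CHR element and 9 a CCAAT box. Over all 32 measured cell cycle genes with a promoter these were 14 and 26. The shares over all tested genes were 15.6% and 42.3%. The interferon response element ISRE was present in 14 of 24 listed interferon genes and in 3.59% of all tested genes.

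Of 31 semaphorins, plexins and neuropilins, 6 were higher, and beside Sema5a these included Sema3g (5.1 and 5.2 against 7.0 and 6.9) and Plxnd1 (6.6 and 6.5 against 7.8 and 7.8), a semaphorin receptor of endothelium; without wild-type array 1, wild-type array 2 or hIAPP array 1, 3 were called. Immediate early genes were higher for 8 of 22, among them the nuclear receptor genes Nr4a3 (3.7 and 3.6 against 6.3 and 5.7) and Nr4a1 (7.9 and 7.8 against 8.8 and 8.8), and the count was 5, 3 and 4 without wild-type array 1, wild-type array 2 and hIAPP array 1. In the apoptosis list 9 of 25 were higher, led by Bcl2a1a (6.4 and 5.6 against 8.9 and 8.6), a survival factor of blood cells whose near-identical copies the probes may share, and 2 were called without hIAPP array 2 and 3 without any other untreated array. Beside these lists and those that follow, 7.77% of all genes were called higher and 3.19% lower. With the 4 untreated arrays alone, 5 genes of the semaphorin list, 2 immediate early genes and 0 apoptosis genes were called higher. Igf1, made by macrophages and stroma, went from 5.0 and 5.0 to 7.4 and 7.3, while its receptor gene Igf1r fell from 8.5 and 8.7 to 7.9 and 8.1. Neuropeptide genes Cck (3.2 and 2.9 against 6.1 and 5.6; 2.8, SE 0.19, adjusted p = 4.4e-04) and Vgf (6.7 and 6.4 against 8.6 and 8.4) rose. Of the 23 in that list 6 were higher, 2 without wild-type array 1 or hIAPP array 1 and 3 without wild-type array 2 or hIAPP array 2. Respiratory chain genes were called for 1 of 34, Cox6a2, which no fit without 1 array called.

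Exocrine RNA differed more within a genotype than between the genotypes. The median level of 27 acinar markers was 12.1 and 10.4 in wild-type and 10.9 and 12.3 in hIAPP islets. Carboxypeptidase, Cpa1, was at 12.6 and 11.2 against 11.8 and 12.7 (0.35, SE 0.63, adjusted p = 0.8135) and trypsinogen Prss2 at 12.8 and 11.5 against 11.9 and 12.7. Arrays of the genotypes overlapped for both. The acinar transcription factor Bhlha15 was the 1 member called, lower, at 9.2 and 9.2 against 8.6 and 8.7. It was not called when any 1 untreated array was left out, and without hIAPP array 1, 2 acinar markers were called higher. Prss1, another trypsinogen, was at 5.1 and 4.8 against 6.6 and 9.7 (3.2, adjusted p = 0.0572), with hIAPP array 2 the highest. Duct markers were higher for 5 of 20, among them Aqp1 (7.5 and 7.5 against 9.5 and 9.5) and Muc1 (4.5 and 4.7 against 6.2 and 6.6), but without wild-type array 2 or hIAPP array 1 limma called none, without wild-type array 1, 1, and without hIAPP array 2, 2. Adding the acinar level of each array to the model left 1148 genes higher and 377 lower. Of 7 genes of regenerating proteins, 1 was called, Reg3a, which was lower at levels near background (4.7 and 4.2 against 3.5 and 3.6) and, when 1 untreated array was left out, was called only without wild-type array 2. That 1 gene is 14.3% of the list, beside 3.19% called lower over all genes. Reg2 and Reg3b had larger differences but were not called. Reg2 was at 10.8 and 9.6 against 5.9 and 8.1 (-3.2, SE 0.89, adjusted p = 0.0628) and Reg3b at 10.4 and 9.5 against 5.1 and 9.0 (-2.9, SE 1.17, adjusted p = 0.175). For both genes the hIAPP arrays were below the wild-type arrays and far apart from each other, and Reg3b was called lower (-4.85) when hIAPP array 2 was left out.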

How the data were processed

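Total RNA of islets was hybridised to 8 Affymetrix arrays. The deposited table gives log2 values made by the authors with RMA in the affy package, per the submitters' processing notes, rounded to 1 decimal; RMA equalises the arrays' distributions, which removes overall shifts. Of 45141 probe sets, 104 controls were left out and 28898 name 1 gene. The set with the highest mean over 8 arrays stood for each of 17097 genes. limma 3.58.1 (R 4.3.3) fitted 4 group means with 4 residual and 3.27 prior degrees of freedom, and p-values of untreated hIAPP minus untreated wild type were adjusted by Benjamini-Hochberg over all genes. The fit was tested on simulated data. Tables were handled with pandas 2.3.3 and plots drawn with matplotlib 3.10.9.

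The comparison and the 63 gene lists (1250 measured genes) were chosen with earlier results of these data known. Lists were counted against all genes, with no set test. Named genes were the 15 largest rises and falls among called genes whose arrays did not overlap. Genes with provisional names, such as those ending in Rik, and small RNA genes were left out of these. Added to them were up to 6 called members of a list by ascending p, and 24 fixed genes. Other genes given as examples, such as Snhg18, Fn1, Reg2 or uncalled list members, were chosen after their values were seen. Mafa and Ins1, among other genes, were not analysed here. Motifs were counted in RefSeq promoters of GRCm38.p6. Alternatives changed the arrays fitted, the filter, the probe set rule, the prior, the scaling, the replicate block and the acinar covariate.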

Additional observations from a re-analysis of the deposited data

Results flagged for a closer look

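Probe sets that name no gene or several genes entered none of the comparisons of genes. Of these 16139 probe sets, 418 were called higher and 212 lower in untreated hIAPP islets by limma over all non-control probe sets, and 236 and 24 of them changed at least 2-fold. They are not named by the annotation used here, and were singled out because the signal lies outside the genes compared.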

How the results depend on the processing

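Counts that changed by over 1.5 times are given here. With the 4 untreated arrays alone, and equally without PBA-treated wild-type array 1 and PBA-treated hIAPP array 1, 353 genes were higher and 130 lower, 240 and 18 at least 2-fold, because fewer arrays estimate the spread. On PBA-treated wild-type array 1 the hybridisation controls had a median of 7.1, against 9.8 to 10.2 on the other arrays. This array entered the estimate of the spread in the main fit. With every probe set tested, 2004 were higher, 1191 at least 2-fold higher and 113 at least 2-fold lower, out of more features. An intensity trend with a robust prior gave 1038 lower genes, and centring each array on its median gave 3266, with 141 at least 2-fold lower. Leaving out 1 array gave 463 to 1101 higher genes, 87 to 511 lower, 365 to 678 at least 2-fold higher and 31 to 50 at least 2-fold lower. The labels give replicate numbers but do not say whether same-numbered arrays were processed together. Deviations of same-numbered untreated arrays correlated at -0.14, a single value that cannot settle whether they are paired. With the replicate block 1126 genes were higher and 356 lower, 689 and 48 at least 2-fold. No named gene that was called changed direction under these settings. The 300 named genes include fixed genes that were not called in the main fit, such as Ins2 and Hspa5. Of the 300, 183 lost the call with the 4 untreated arrays alone, 17 with median centring and 25 with the acinar covariate. The 2 arrays per group, rounding to 1 decimal and background below 4.68 limit what could be detected.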
